A study of Mus musculus with 4 samples.

Results

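The immunoglobulin superfamily adhesion molecules of growing axons were read here as 10 genes: Alcam, Ncam1, Ncam2, L1cam, Chl1, Nrcam, Nfasc, Cntn1, Cntn2 and Cntn4. They were chosen by name among the L1, Ncam, Alcam and contactin genes, with earlier results of these data known. The set does not hold every contactin: Cntn3, Cntn5 and Cntn6 were read with the related genes below. Each member matched 1 of the 21814 genes in the tables. RNA came from aggregates of mouse iMN-ESCs, an inducible embryonic stem cell line of C57BL/6 background in which doxycycline (Dox) turns on a fusion of the motor neuron factors Isl1 and Lhx3. All 4 samples carried this transgene and had 2 days as aggregates in stem cell medium with LIF and 2 days in 0.5 µM all-trans retinoic acid. They then stayed in retinoic acid for another 2 to 3 days, either without Dox (2 libraries) or with 2 µg/mL Dox (2 libraries). Cells that lack the transgene but received Dox are not among the groups, so what the fusion does and what the drug does cannot be told apart. The aggregates hold several cell types, and in such bulk RNA more cells of a type and more RNA per cell cannot be told apart.

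These proteins sit on the axon surface and hold growing axons to each other and to their substrate. The L1 group (L1cam, Chl1, Nrcam, Nfasc) spans the membrane and binds ankyrins inside the cell, whereas contactins are held by a lipid anchor and work with transmembrane partners. Ncam1 binds its own kind on the next cell, and a chain of polysialic acid can loosen that contact. Alcam (also BEN, DM-GRASP or CD166) and Cntn2 (TAG-1) are long known on the axons of young spinal motor neurons.

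Counts summed over gene parts came to 24020832 to 53903936 per library. The libraries followed their labels: Lhx3 had 0.404 and 0.286 CPM (counts per 1000000, TMM-scaled) in the no Dox libraries against 125 and 108 CPM in the Dox libraries, and Isl1 had 3.08 and 5.83 CPM against 104 and 82.4 CPM. Of 7 motor neuron markers 6 were higher with Dox, where edgeR called 1.23% of all genes tested higher. Isl1 and Lhx3, the factors fused in the transgene, are among them, so part of this count was set by the design. The others called were Mnx1, Chat, Slc18a3 and Slc5a7, and Isl2 was not called (adjusted p = 0.35, edgeR). The summed level of these markers, with Isl1 and Lhx3 included, was 7.93 and 9.87 CPM in the no Dox libraries against 343 and 308 CPM in the Dox libraries. None of 8 pan-neuronal markers was called by edgeR. Of these, 3 were lower at an unadjusted p under 0.05 in edgeR, where 4.01% of all genes were. Their sum was 433 and 351 CPM in the no Dox libraries against 314 and 234 CPM in the Dox libraries. The libraries also differed along transcripts, in a way that followed the replicate number: the part at the 3′ end of a gene held a median of 31.6% and 32.6% of its counts in the replicates numbered 1, without and with Dox, and 40.0% and 37.6% in those numbered 2 (10630 genes with at least 100 counts in every library).

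Promoter windows, 250 bases before to 50 after an annotated start, were taken from RefSeq (GRCm38.p6) and matched 9 of the 10 genes. The windows of Alcam and Cntn1, 2 genes that were higher with Dox, are shown because LIM-homeodomain factors such as Isl1 and Lhx3 bind short AT-rich sites built on TAAT. Capitals mark TAAT on either strand.
Alcam, chr16:52453032-52453331, minus strand: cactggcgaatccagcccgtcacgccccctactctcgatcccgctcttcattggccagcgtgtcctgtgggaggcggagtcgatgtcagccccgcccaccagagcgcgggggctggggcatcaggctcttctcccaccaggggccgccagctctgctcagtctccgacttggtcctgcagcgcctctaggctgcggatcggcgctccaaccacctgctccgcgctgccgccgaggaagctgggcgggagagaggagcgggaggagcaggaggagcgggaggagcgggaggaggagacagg
Cntn1, first of 3 starts, chr15:92050915-92051214, plus strand: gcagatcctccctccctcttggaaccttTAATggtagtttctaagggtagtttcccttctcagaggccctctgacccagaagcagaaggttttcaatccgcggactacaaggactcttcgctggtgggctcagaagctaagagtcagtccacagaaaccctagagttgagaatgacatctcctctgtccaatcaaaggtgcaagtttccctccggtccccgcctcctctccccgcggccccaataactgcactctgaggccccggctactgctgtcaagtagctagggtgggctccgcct
The Alcam window held no TAAT and the first Cntn1 window held 1, while the other Cntn1 windows held 5 and 4. The motif TAAT, searched on both strands, was in 58.0% of 32851 windows of the same length, and TAATTA, which contains it, was in 5.3%. Among the 14 windows of the members, TAATTA was found in 1 Cntn4 window. G and C made up 69.7% of the Alcam window and 55.3% of the first Cntn1 window. A match is a description of these letters and not a binding site.

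The comparison of Dox with no Dox asks how far the axon adhesion genes move when the Isl1-Lhx3 fusion is switched on. Cntn1, Alcam and Ncam1 were higher with Dox, by about 12.3-fold, 4.29-fold and 2.17-fold, and no member was lower. Of the 9 members with enough counts to be tested, edgeR's quasi-likelihood test called 3 higher, 0 lower and 6 neither way at a Benjamini-Hochberg adjusted p under 0.05, where it called 1.23% of all 14278 genes higher and 0.056% lower. Leaving out the 3′ part of each gene lowered the 3 to 1, where 80 of 13510 genes were called higher. With the replicate number as a block 7 members were called higher, where 7.31% of all genes were. DESeq2 and limma-voom also called 0 members lower, as did an unadjusted p under 0.05 in edgeR. The fitted log2 fold change was above 0 for all 9 tested, with a median of 1.12, against -0.01 over all genes tested, of which 47.1% were above 0. The sign of L1cam was the exception under other settings. At an unadjusted p under 0.05, 7 of 9 were higher and 0 lower, against 6.25% and 4.01% of all genes. In 8 of 9, both libraries with Dox lay above both without it, against 18.9% of all genes. In 0 of 9 both lay below, against 19.9%. Chl1 counts toward both the 8 and the 9 above 0, on only 4 to 33 counts per library. The low-count filter reads the Dox libraries too, so a gene this low can enter the test through its level with Dox.

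**Figure D1:**
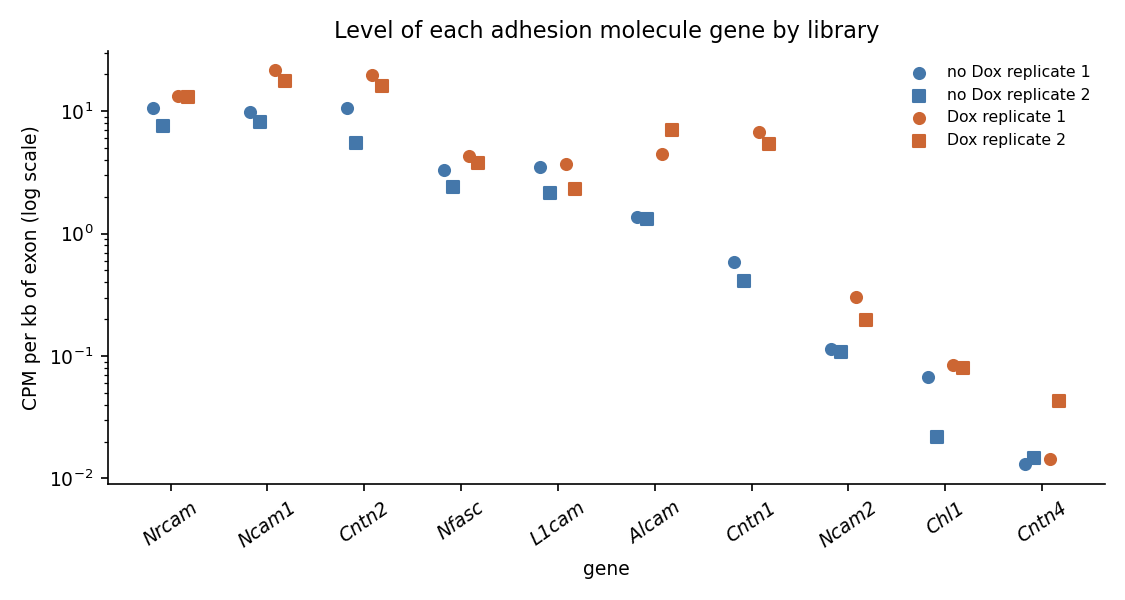
CPM per kb of exon (log scale) of the 10 genes in each of the 4 libraries, in order of the mean level without Dox. The largest separation is in Cntn1, from 0.587 and 0.406 to 6.81 and 5.43 CPM per kb, and the L1cam libraries overlap.

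Among the contactins, which are GPI-anchored, Cntn1 (F3/contactin) stood at 3.60 CPM in no Dox 1, 2.49 in no Dox 2, 41.7 in Dox 1 and 33.3 in Dox 2. The groups were far apart compared with the spread within each. Cntn1 rose by log2 3.62 (SE 0.24, adjusted p = 0.0029, edgeR). Leaving out any one library gave changes of 3.38 to 3.92, and the call held in every alternative tried. Cntn2 (TAG-1), found on early motor and commissural axons, was more abundant and did not pass the test. It stood at 75.7 CPM in no Dox 1, 39.3 in no Dox 2, 141 in Dox 1 and 116 in Dox 2. Both Dox libraries were above the others, but on the log2 scale the no Dox libraries differed from each other by almost as much as the group means did. The difference was 1.16 on the log2 scale (SE 0.30, adjusted p = 0.212, edgeR). DESeq2 called it (adjusted p = 0.00277, where it called 2.82% of genes higher), and so did edgeR without no Dox replicate 1 (log2 1.72, adjusted p = 0.000782) and without no Dox replicate 2 (0.76, adjusted p = 0.0416). Over the alternatives without a replicate block its adjusted p ran from 0.000782 to 0.655. Cntn4 (BIG-2), known from olfactory axons, had 2 and 2 counts without Dox and 3 and 13 with it, too few to be tested. Its ratio of summed counts (16 against 4), divided by the ratio of TMM-scaled library sizes, was 2.25, with an exact 95% interval of 0.726 to 9.25 that covers counting error only. A difference in Cntn4 was not detectable at this depth.

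Set against each other within a library and per kb of exon, the level of Cntn1 was 0.0557 and 0.0743 of that of Cntn2 without Dox, and 0.346 and 0.337 with it. The ratio was higher in both Dox libraries. An exact two-sided permutation test of 2 against 2 cannot go below p = 0.333, so this ratio is given as a description.

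Alcam, which binds itself and CD6 and is carried by motor axons, stood at 8.26 CPM in no Dox 1, 8.0 in no Dox 2, 27.1 in Dox 1 and 42.5 in Dox 2. The libraries without Dox were close together, and the Dox libraries differed by more. Alcam rose by log2 2.10 (SE 0.24, adjusted p = 0.019, edgeR). Without Dox replicate 2 the change was 1.76 and without Dox replicate 1 it was 2.39. The call ended when the part at the 3′ end of each gene was left out of the counts (log2 2.12, adjusted p = 0.0572), a step chosen after seeing the shares by library. Over the alternatives without a replicate block its adjusted p ran from 2.06e-13 in DESeq2 to that value.

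Of the Ncam genes, Ncam1 stood at 63.0 CPM in no Dox 1, 51.4 in no Dox 2, 137 in Dox 1 and 112 in Dox 2. The groups did not overlap, and the gap between them was larger than the difference within either. Ncam1 rose by log2 1.12 (SE 0.16, adjusted p = 0.0405, edgeR). This call was close to the threshold. It ended when testing was restricted to genes averaging 5 CPM or more (adjusted p = 0.0571) and when the 3′ part was left out (log2 1.12, adjusted p = 0.262). Over the alternatives without a replicate block the adjusted p ran from 1.74e-06 in DESeq2 to 0.262. Ncam2 (OCAM), known from olfactory axons, was near the low end of detection, with 27 and 23 counts without Dox and 98 and 94 with it. In CPM these were 0.991 and 0.938 against 2.62 and 1.72, with both Dox libraries above the others. The difference of 1.16 on the log2 scale was about that of Ncam1, but its error was larger (SE 0.35, adjusted p = 0.284), and it did not pass. With the replicate number as a block Ncam2 passed (log2 1.15, adjusted p = 0.0143, edgeR).

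None of the 4 L1-group genes passed edgeR's test without a replicate block when all libraries were used, whereas Nrcam and Nfasc passed with the block (adjusted p = 0.00163 and 0.00195). L1cam stood at 17.9 CPM in no Dox 1, 10.9 in no Dox 2, 18.8 in Dox 1 and 11.9 in Dox 2. The groups overlapped almost completely, and each library numbered 1 was above both numbered 2. The difference in L1cam was 0.08 on the log2 scale (SE 0.32, adjusted p = 0.983), and it changed sign when Dox replicate 1 (-0.28) or no Dox replicate 2 (-0.23) was left out and with the largest part as the gene's count (-0.030). Nrcam, a partner of contactins and neuropilins, had 69.2 CPM in no Dox 1, 49.0 in no Dox 2, 86.6 in Dox 1 and 84.5 in Dox 2. The difference in Nrcam was 0.53 (SE 0.18, adjusted p = 0.345). Without no Dox replicate 1 it was 0.81 and passed (adjusted p = 0.016, in a range of 0.016 to 0.533 over the alternatives without a replicate block). Nfasc, which later organises the axon initial segment and nodes, had 34.3 CPM in no Dox 1, 24.8 in no Dox 2, 44.6 in Dox 1 and 38.9 in Dox 2. Its difference was 0.50 (SE 0.19, adjusted p = 0.431). In Nrcam and Nfasc both Dox libraries were above both others, but the gap between the groups was smaller than the difference between the no Dox libraries. Chl1, the close homologue of L1, had 14 and 4 counts without Dox and 24 and 33 with it, or 0.514 and 0.163 CPM against 0.642 and 0.604 CPM. Its difference of 0.85 (SE 0.56, adjusted p = 0.733) moved to 1.92 without no Dox replicate 1 and to 0.27 without no Dox replicate 2.

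**Figure D2:**
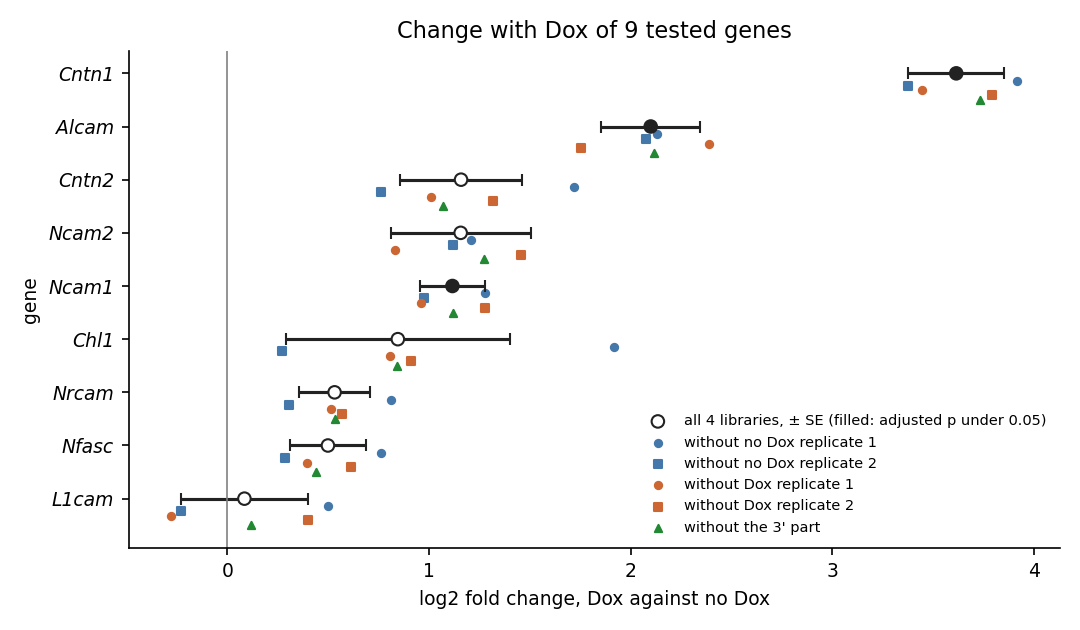
Log2 fold change with Dox of the 9 tested genes (circles with ± SE, filled at an adjusted p under 0.05) and the same with 1 library, or the 3′ part of every gene, left out. Cntn1, Alcam and Ncam1 stay at or above 0.96 in each of these, and L1cam falls on both sides of 0.

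Per kb of exon, the order of the levels changed between the groups. Without Dox, Nrcam (10.7 and 7.55 CPM per kb), Ncam1 (9.92 and 8.09) and Cntn2 (10.5 and 5.47) were highest and overlapped. Nfasc (3.31 and 2.40) and L1cam (3.50 and 2.13) came next and overlapped with each other. Alcam (1.37 and 1.32) and Cntn1 (0.587 and 0.406) followed, each apart from its neighbours. With Dox, Ncam1 (21.5 and 17.5) and Cntn2 (19.7 and 16.1) overlapped at the top, above Nrcam (13.3 and 13.0). Cntn1 (6.81 and 5.43) and Alcam (4.49 and 7.05) overlapped and lay above Nfasc (4.32 and 3.76) and L1cam (3.67 and 2.32). Ncam2, Chl1 and Cntn4 stayed below 0.31 CPM per kb in every library. Lengths came from a later annotation than the counts, and a read that spans parts may be counted in each, so small differences in level between genes are not read here. The 10 genes together summed to 274 and 187 CPM in the no Dox libraries against 500.1 and 441 CPM in the Dox libraries.

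Next the counts were read along each transcript, part by part. In Alcam all 16 parts, in Cntn1 24 of 25 parts with counts and in Ncam1 18 of 19 were higher in both Dox libraries than in both others, as were 16 of 23 in Cntn2. In L1cam 4 of 29 parts were higher in this sense and 2 were lower. Parts of a gene share the same 4 libraries, and a read that spans parts may be counted in each. The part counts thus restate the difference of the whole gene and are not separate observations. The share over all parts was not counted. Part use within genes was tested with edgeR in the 7 members with enough counts, and none was called by the gene-level F test (0.0346% of 11556 genes called) or by the Simes test (0.0173% called). At an unadjusted p under 0.05 the count was also 0, the smallest gene-level p being 0.14 (Alcam, Simes). The part nearest to a call was the second of Alcam from the 5′ end, with 1 and 0 counts without Dox and 33 and 52 with it (relative log2 change 2.25, adjusted p = 1.0, edgeR). Ncam1 and Nrcam have well-known alternative forms, but their parts could not be matched to annotated exons, so these forms were not read. One inner Ncam1 part had 3 and 4 counts without Dox and 11 and 20 with it, far below its neighbours in all 4 libraries. The inner Nrcam part 28 had 2, 0, 2 and 0. Whether either part belongs to an alternative form, or is only short, is not known. At such counts a change in the use of these parts was not detectable.

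**Figure D3:**
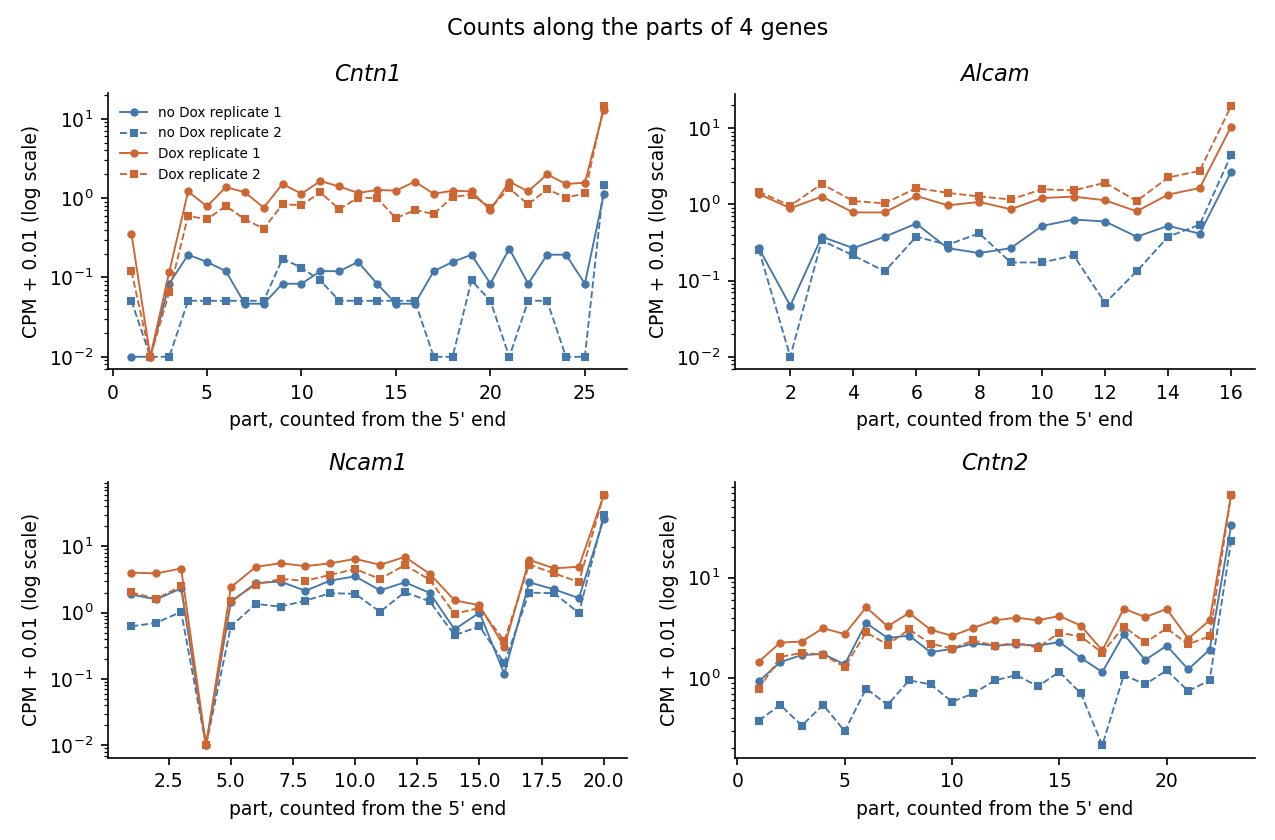
CPM + 0.01 (log scale) in each part of Cntn1, Alcam, Ncam1 and Cntn2, counted from the 5′ end, by library. The Dox lines lie above the others in all 16 Alcam parts and in 24 Cntn1 parts, and the last part is the highest in each gene.

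In the 7 most counted members the share at the 3′ end followed the replicate number as it did over all genes. In Cntn1 the 3′ part held 30.6% and 59.0% of the counts in no Dox replicates 1 and 2, and 31.2% and 43.5% in Dox replicates 1 and 2. The Ncam1 shares were 41.3% and 58.0% without Dox and 43.4% and 54.3% with it. In Ncam1 the groups were closer than the numbers were, whereas in Cntn1 the replicates numbered 2 also differed between the groups. With the 3′ part left out, the log2 differences were 3.73 for Cntn1, 2.12 for Alcam, 1.12 for Ncam1, 1.07 for Cntn2 and 0.12 for L1cam, close to those with it. Only Cntn1 passed among the members (adjusted p = 0.0219), and over all genes the number called higher fell to 80.

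**Figure D4:**
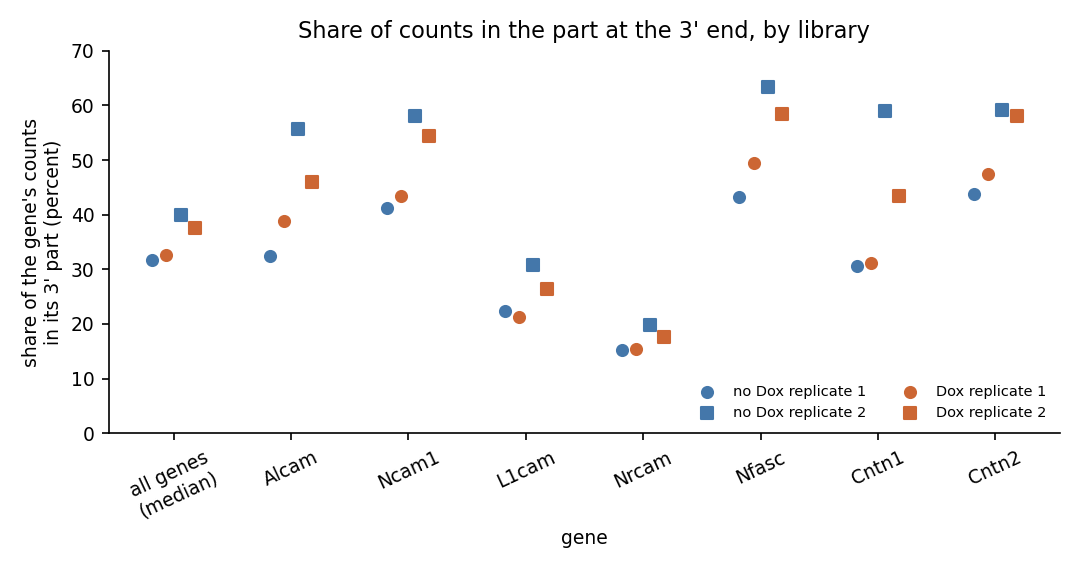
Share of a gene's counts in its part at the 3′ end (percent, linear axis from 0) by library, for all genes (median) and the 7 members with the most counts. Squares (replicates numbered 2) lie above circles (numbered 1) in each gene.

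Relatives of the members were read next. Of 28 related immunoglobulin adhesion genes 26 were tested, and edgeR called 3 higher, 0 lower and 23 neither way, with a median log2 fold change of 0.28 (all genes -0.01). The shares of all genes called were 1.23% higher and 0.056% lower, and 7.31% higher with the replicate block. DESeq2 and limma-voom also called 0 of the related genes lower. Before adjustment, edgeR's p fell below 0.05 for 9 of the 26 with Dox above and for 1 with Dox below. The shares among all genes were 6.25% and 4.01%. In 14 of the 26 both Dox libraries exceeded both others, and in 5 both were beneath them, where all genes gave 18.9% and 19.9%. With the replicate block edgeR called 11 higher and 1 lower, where it called 7.31% of all genes higher and 862 of 14278 lower. Mcam (CD146), an adhesion molecule best known from endothelial and perivascular cells, rose with Dox, having 5.10 CPM in no Dox 1, 5.63 in no Dox 2, 15.9 in Dox 1 and 17.0 in Dox 2 (log2 1.62, SE 0.17, adjusted p = 0.0138). Cntn3, another contactin, rose with Dox, having 1.61 CPM in no Dox 1, 1.35 in no Dox 2, 6.26 in Dox 1 and 4.70 in Dox 2 (log2 1.88, SE 0.28, adjusted p = 0.0449). The contactin Cntn5 did not pass (log2 0.63, SE 0.59, adjusted p = 0.845, edgeR). Cntn6 had 1 and 7 counts without Dox and 4 and 6 with it, too few to be tested. Mdga2, a GPI-anchored protein that limits synapse formation, rose with Dox, having 1.17 CPM in no Dox 1, 0.490 in no Dox 2, 4.92 in Dox 1 and 5.31 in Dox 2 (log2 2.60, SE 0.40, adjusted p = 0.0499, and log2 3.39 without no Dox replicate 1). The calls of Cntn3 and Mdga2 ended without the 3′ part (log2 1.83, adjusted p = 0.13, and log2 2.29, adjusted p = 0.161). That of Cntn3 also ended in limma-voom (log2 1.84, adjusted p = 0.062) and with the largest part as its count (log2 2.01, adjusted p = 0.082). With the largest part, that of Mcam ended too (log2 1.76, adjusted p = 0.128), and with DESeq2 size factors that of Mdga2 (log2 2.60, adjusted p = 0.0534). Over the alternatives without a replicate block the adjusted p ran from 4.44e-05 to 0.13 for Cntn3, from 1.46e-06 to 0.161 for Mdga2 and from 5.14e-10 to 0.128 for Mcam.

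Of 23 partners, modifiers and ligands of the members 21 were tested, and 1 was higher, 0 were lower and 20 neither way by edgeR, with a median of 0.06. Over all genes edgeR called 1.23% higher. DESeq2 called 2 of them higher (2.82% of all genes) and limma-voom 1 (169 of 14278 genes), and both called 0 lower. At an unadjusted p under 0.05 in edgeR, 3 were higher and 0 lower, against 6.25% and 4.01% of all genes. With the replicate block edgeR called 6 higher and 2 lower, where it called 7.31% of all genes higher and 862 of 14278 lower. Nrp1, the semaphorin receptor that pairs with L1, rose with Dox, having 27.7 CPM in no Dox 1, 29.1 in no Dox 2, 449 in Dox 1 and 339 in Dox 2 (log2 3.79, SE 0.18, adjusted p = 0.000969). No other gene in this list, which holds ankyrins, ezrin-radixin-moesin proteins, contactin-associated proteins, the polysialic acid enzymes and matrix ligands, passed in the edgeR test without a replicate block when all libraries were used.

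**Figure D5:**
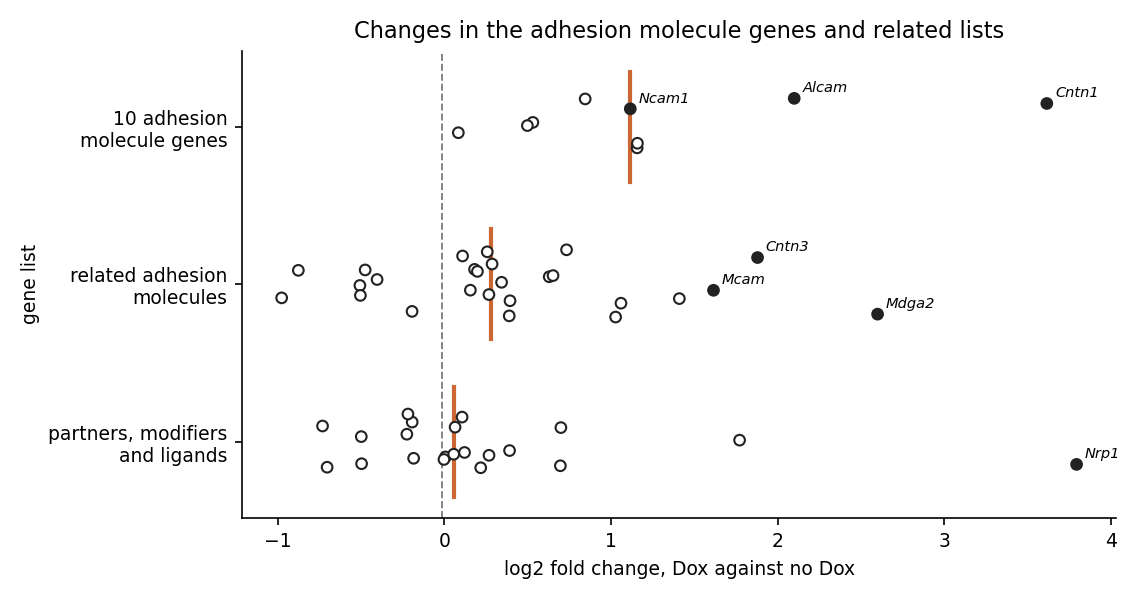
Log2 fold change with Dox of each tested gene in 3 lists (points, filled and named at an adjusted p under 0.05, with random vertical offset), the list median (orange bar) and the median of all genes tested (dashed line). The medians are 1.12, 0.28 and 0.06.

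The genes whose pattern over the 4 libraries was nearest to a called member were found by Euclidean distance in centred log2 CPM, among 10756 genes averaging 5 CPM or more. For Cntn1 they were Plppr1 (distance 0.21; 1.69 and 1.39 CPM without Dox, 20.7 and 18.5 CPM with it), Samd5 (0.31) and Hecw2 (0.31). For Alcam they were Rbms3 (0.30), Sncg (0.35) and Atp1b2 (0.42). For Ncam1 they were Dlc1 (0.11), the neurotrophin receptor Ngfr (0.14) and Tshz2 (0.14). Their log2 differences were 1.20, 1.03 and 1.08, and edgeR called none of them (adjusted p = 0.0513, 0.129 and 0.064). With 4 libraries in 2 groups, this distance depends on the size of the change and on how the replicates differ.

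Several members are also made outside neurons, so markers of other cells were read beside them. For the counts that follow, edgeR called 1.23% of all genes higher and 0.056% lower. At an unadjusted p under 0.05 in edgeR these shares were 6.25% and 4.01%. Of 6 fibroblast markers 4 were tested and 2 were higher, Col1a1 and Col3a1. Their summed level was 38.1 and 44.5 CPM in the no Dox libraries against 130 and 112 CPM in the Dox libraries. The endothelial markers summed to 26.8 and 45.0 CPM in the no Dox libraries against 33.2 and 54.9 CPM in the Dox libraries, with 1 of 5 tested higher (Erg), and Pecam1 stayed below 0.9 CPM in every library. Endoderm markers summed to 1507 and 1718 CPM against 1463 and 1720 CPM, with 0 of 6 called (0 at an unadjusted p under 0.05). Neural progenitor markers summed to 631 and 512 CPM against 409 and 276 CPM, with 0 of 7 called (4 lower at an unadjusted p under 0.05). Interneuron markers summed to 60.1 and 43.9 CPM against 34.3 and 25.5 CPM, with 0 of 10 tested called (4 lower and 1 higher at an unadjusted p under 0.05) and Barhl2 at 0 in every library. Markers of sensory neurons and neural crest summed to 56.6 and 64.8 CPM against 32.7 and 32.3 CPM, with 1 of 5 tested lower (Pou4f1). Astrocyte and oligodendrocyte markers summed to 495 and 451 CPM against 421 and 425 CPM, with 1 of 6 higher (Aqp4). Most of this sum was Pdgfra, at 467 CPM in no Dox 1 and 425 in no Dox 2. In Dox 1 Pdgfra had 389 CPM and in Dox 2 it had 392. Mbp, the next most abundant, had 20.5 and 15.0 CPM against 17.6 and 15.9 CPM. The sum is thus mainly a reading of Pdgfra. Pluripotent cell markers summed to 12 and 13.8 CPM against 13.2 and 18.5 CPM, with 0 of 6 called (1 higher at an unadjusted p under 0.05). The part of these cells in the changes of Alcam, Ncam1 and Cntn1 was not tested.

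On the genome, Cntn2 and Nfasc on chromosome 1 are neighbours with no protein-coding gene between them, and Chl1 and Cntn4 on chromosome 6 have only Cntn6 between them, in the RefSeq table of GRCm38.p6. The mean level without Dox was 8.01 CPM per kb for Cntn2 and 2.86 for Nfasc, and 0.0448 for Chl1 and 0.0139 for Cntn4. Predicted genes overlap Alcam, Ncam1, Chl1, Nfasc and Cntn1 in that table, but no protein-coding gene overlaps a member. Whether the counting used strand is not stated, so reads of those overlapping genes cannot be told apart from the members' own.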

How the data were processed

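RNA was sequenced from 2 libraries without and 2 with Dox. Per the labels, libraries followed the Illumina TruSeq protocol, and the design text calls the replicates biological duplicates. TopHat and mm9 appear in the submitters' processing notes. Not given in the sources used here were the counting tool, annotation and strand setting. The authors deposited raw whole-number counts for 208825 numbered gene parts, without positions. The 4 rows that name no gene were left out (reads outside genes made up 13.6% to 15.8% and ambiguous reads 0.411% to 0.521% of each library).

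Parts were summed to genes, named by transcript identifier through RefSeq (GRCm38.p6) and GENCODE M21 (97.1% of 27601 identifiers matched). Exon lengths and strands came from GENCODE M21. Part order was that of the deposited part numbers, taken to rise along the chromosome, and the 3′ part rests on this reading. The parts of Ncam1, Nrcam, Nfasc and Cntn1 could not be matched to annotated exons. Genes were tested with edgeR 4.0.16 (R 4.3.3, quasi-likelihood F test, TMM, default low-count filter, Benjamini-Hochberg adjustment at 0.05), part use with diffSpliceDGE. Both were tested on simulated data. Alternatives used DESeq2 1.42.0, limma 3.58.1, other filters, scalings and counts, a replicate block and each library left out. Replicates of a group were not copies of one library (chi-square over degrees of freedom 36.5 without and 32.6 with Dox). The biological coefficient of variation was 0.148.

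The members, gene lists and tests were chosen with earlier results of these data known. Named were all members, Isl1 and Lhx3, per pathway list up to 4 called genes (or the 2 most abundant), and the 3 nearest genes of each called member. Other genes appear as markers, Cntn5 and Cntn6 as the remaining contactins, and St8sia4 and St8sia2 as the polysialic acid enzymes.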

Additional observations from a re-analysis of the deposited data

How the results depend on the processing

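Cntn4, Chl1 and Ncam2 rest on fewer than 100 counts in every library, and each group has 2 libraries. The number of genes called higher (175) was 403 in DESeq2, 295 unfiltered, 104 among genes averaging 5 CPM or more, 80 without the 3′ part and 271 to 280 with a library left out. The number called lower (8) was 116, 46, 4, 0 and 19 to 116 in the same order, 16 with library totals only and 14 with the largest part as count. For the 0 without the 3′ part, the cause was not tested. Members called higher (3) were 4 in DESeq2, 2 among genes averaging 5 CPM or more and 1 without the 3′ part. Without no Dox replicate 1 they were Cntn1, Alcam, Ncam1, Nrcam and Cntn2. L1cam reversed to -0.030 with the largest part and ran from -0.28 to 0.50 with a library left out. Part use called 0 to 3 genes by F and 0 to 2 by Simes with a library left out, and 0 members in every alternative.

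The labels give both groups the replicate numbers 1 and 2 and do not say what a number shares. The difference between replicates correlated between the groups (r = 0.71 over 10890 genes). With the number as a replicate block, edgeR called 1044 genes higher (7.31%) and 862 lower, 7 members higher (Cntn1, Alcam, Ncam1, Ncam2, Nrcam, Nfasc and Cntn2) and none lower, and part use in 7 genes by F and 4 by Simes. With the block, the fit of the 4 libraries has fewer degrees of freedom left, so its calls lean more on the spread over all genes. Calls lost without the block do not show a weaker effect, and calls gained with it do not show a stronger one.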
